A study of Mus musculus with 4 samples.

Results

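The genes described here are 10 heat shock protein genes of the cytosol and mitochondria: Hsp90aa1 and Hsp90ab1 (Hsp90), Hspa8, Hspa1a and Hspa1b (Hsp70), Dnajb1 and Hsph1 (Hsp70 partners), Hspb1 (a small heat shock protein), and Hspd1 and Hspe1 (the mitochondrial chaperonin). They were picked by Ensembl ID from a table of ribosome footprint counts that holds 53465 gene IDs. The table carries no symbols, so the names are those supplied with the list of IDs; the gene table used here gives an Ensembl ID for 0 of its 49997 genes, and the pairing could not be checked against it. Of the 10 genes, 8 had a count in any library and the same 8 passed the filter on low counts, while Hspa1a and Hspa1b had 0 counts in all 4 libraries.

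The 4 libraries come from MLE-12, an immortalised mouse lung epithelial line that the submitters class with alveolar type 2 cells; a single line stands in for that cell type, and markers of the type were not analysed here. The 2 libraries of 1-nitropyrene cells (replicates 2 and 3) come from cultures given 5 µM of the compound, a nitrated polycyclic aromatic hydrocarbon found in diesel exhaust, for 12 h. The 2 control libraries (replicates 1 and 2) come from cultures without it, and the labels do not say whether these received a solvent. Cells of both groups were washed with 100 µg/mL cycloheximide, which holds ribosomes on the mRNA, and fragments protected by ribosomes were then sequenced. The study asks how the compound acts on translation; for these genes the comparison shows whether footprint levels differ after 12 h. A footprint count reflects both the amount of an mRNA and the ribosomes on it, which cannot be told apart without RNA libraries, and in bulk samples neither can fewer cells and less RNA per cell. The libraries held 1243186 and 1357034 counts (1-nitropyrene) and 1261372 and 1136145 counts (control). The labels do not state whether a group's replicates were grown apart, so p-values here cover only the spread among these libraries, possibly a technical one. In the edgeR fit this spread was the trend over genes of like abundance, not a gene's own.

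Heat shock proteins are chaperones that bind unfolded or immature proteins and help them to fold, or hold them until they can be refolded or degraded. In the cytosol, Hsp70 takes up short hydrophobic stretches in a cycle driven by ATP, with J-domain proteins such as Dnajb1 delivering substrates and exchange factors such as Hsph1 resetting it, and passes some substrates on to Hsp90, which matures kinases, steroid receptors and other signalling proteins. When unfolded protein accumulates, the transcription factor Hsf1 binds heat shock elements, inverted repeats of the letters GAA, and induces many of these genes together.

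The heat shock protein genes did not move one way. In 1-nitropyrene cells Hsp90aa1, Hsp90ab1 and Hspa8 were higher, Hspb1 and Hsph1 were lower, and Hspd1, Hspe1 and Dnajb1 did not pass the test (edgeR quasi-likelihood test, p adjusted by Benjamini-Hochberg over the 7719 genes tested, threshold 0.05). Of the 8 members tested, 3 were thus called higher, where 9.68% of all genes tested were, and 2 were called lower, where 7.58% were. In either direction 17.3% of all genes tested were called, and calls were more frequent among genes with many counts. Among the 1933 genes that averaged 92 counts or more, 36.4% were called, 24.7% higher and 11.7% lower, and 6 of the members, the 5 called ones among them, average as much. In 7 of the 8 members the levels of the groups lay apart, Dnajb1 being the exception, as they did in 57.3% of all genes tested. The median log2 fold change was 0.17 over the 8 members and -0.0076 over all genes tested. Among genes that averaged 92 counts or more it was 0.17 over the 6 members and 0.082 over all 1933. Under the DESeq2 Wald test Hsp90aa1 was the only member called, where 11.2% of the genes with an adjusted p were, a set without Hspe1. Run on the genes of the edgeR fit, with all 8 members, it again called only Hsp90aa1 of them, and 4.47% of all genes.

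**Figure D1:**
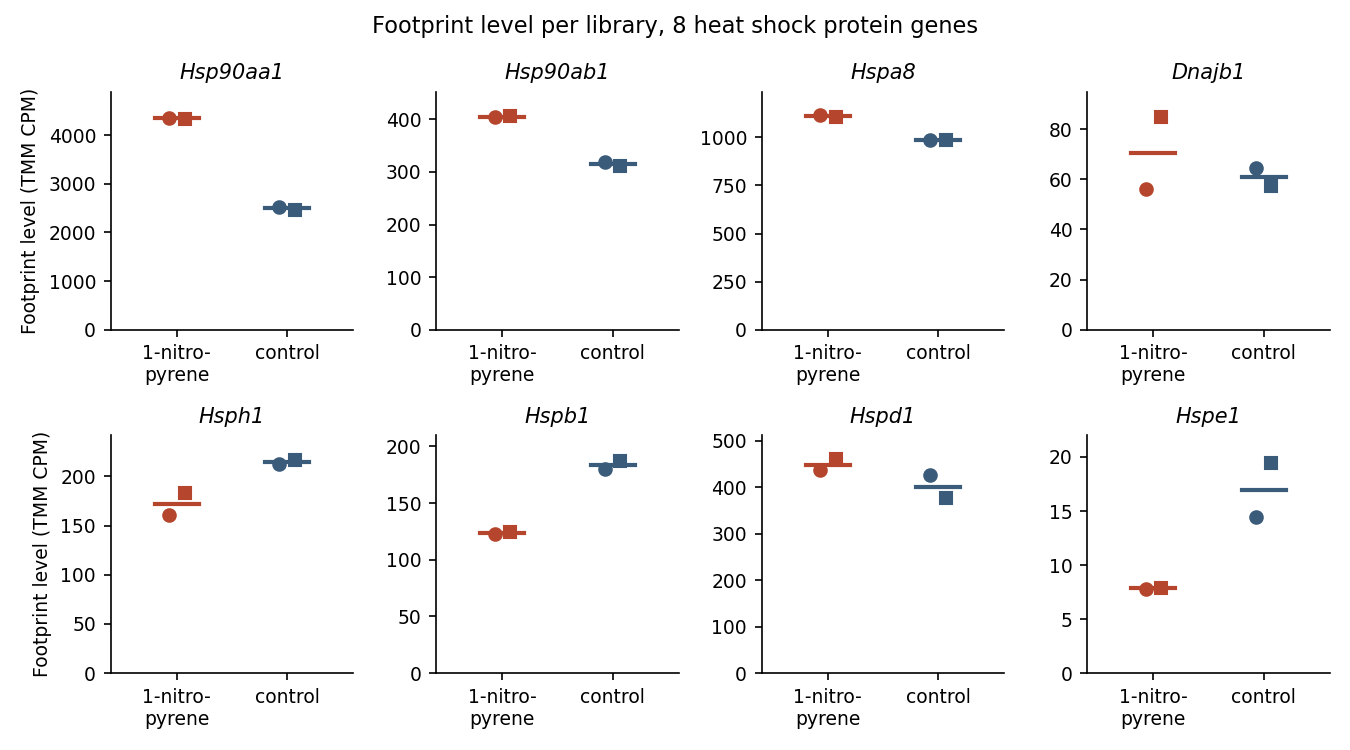
Footprint level (CPM, counts per 1e6 of the TMM-scaled library; linear axes from 0, a scale of its own for each gene) in each library for the 8 heat shock protein genes with counts. Red points are the 1-nitropyrene libraries (circle replicate 2, square replicate 3), blue points the control libraries (circle replicate 1, square replicate 2), and bars the group means of n = 2; Hsp90aa1 lies at 4352 and 4345 CPM in 1-nitropyrene cells, against 2528 and 2471 CPM in control cells, while the points of Dnajb1 overlap.

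Hsp90aa1 (ENSMUSG00000021270), the stress-inducible cytosolic Hsp90 (Hsp90 alpha), had 5057 and 5485 counts in the 1-nitropyrene libraries, against 3324 and 2929 counts in the control libraries. Both 1-nitropyrene libraries lie far above both controls, and the replicates of a group lie close together. Its level, in counts per 1e6 of the TMM-scaled library (CPM), averaged 4348 ± 4.93 CPM in 1-nitropyrene cells and 2500 ± 40.4 CPM in control cells (SD, n = 2 each). The level was 1.74-fold higher in 1-nitropyrene cells (95% interval 1.67 to 1.82; log2 fold change 0.80 ± 0.032 SE; edgeR adjusted p = 8.17e-135). Of the 100 genes that averaged 1000 or more counts, 7 had a higher log2 fold change than Hsp90aa1, and among all genes tested 477 did. Its gene lies on mouse chromosome 12 at chr12:110691036-110696395 (mm10, RefSeq annotation of GRCm38.p6).

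Hsp90ab1 (ENSMUSG00000023944, chr17:45567778-45573261), the Hsp90 that most cells make at all times (Hsp90 beta), had 470 and 513 counts in the 1-nitropyrene libraries, against 419 and 370 counts in the control libraries. The level averaged 405 ± 1.35 CPM in 1-nitropyrene cells and 315 ± 4.62 CPM in control cells (SD, n = 2 each), with no overlap. It was 1.28-fold higher in 1-nitropyrene cells (95% interval 1.14 to 1.44; log2 fold change 0.36 ± 0.086 SE; edgeR adjusted p = 0.00049). The call was lost with scaling to total counts (log2 fold change 0.20, adjusted p = 0.0866) and under the DESeq2 Wald test (0.37, adjusted p = 0.0578). Within a library, counts on Hsp90aa1 were 10.8 and 10.7 times those on Hsp90ab1 in 1-nitropyrene cells, against 7.93 and 7.92 times in control cells. This ratio needs no scaling between libraries and was 1.35-fold higher in 1-nitropyrene cells. In these libraries, the counts on the pair thus did not differ in proportion. As the pair was chosen with its values known, the ratio is given with no test. Being of counts, it says nothing of which gene is translated more per length. How fragments matching both genes were counted is not given, so the ratio is uncertain where any do.

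Hspa8 (ENSMUSG00000015656, chr9:40801276-40805202), the constitutive cytosolic Hsp70 (Hsc70), had 1298 and 1395 counts in the 1-nitropyrene libraries, against 1296 and 1170 counts in the control libraries. The groups do not overlap in counts, though the lower 1-nitropyrene count and the higher control count are nearly equal. After TMM scaling the levels were 1117 and 1105 CPM in 1-nitropyrene cells, against 986 and 987 CPM in control cells. The level was 1.13-fold higher in 1-nitropyrene cells (95% interval 1.05 to 1.21; log2 fold change 0.17 ± 0.051 SE; edgeR adjusted p = 0.0079), the smallest of the changes called among the 8 genes. Scaled to total counts, the log2 fold change was 0.0065 (adjusted p = 0.945). The adjusted p was also 0.0813 without 1-nitropyrene replicate 2, 0.0821 without control replicate 1 and 0.0574 without control replicate 2.

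Hspa1a (ENSMUSG00000091971) and Hspa1b (ENSMUSG00000090877) encode the heat-inducible Hsp70, whose rise is the usual sign of a heat shock response. Each had 0 counts in the 1-nitropyrene libraries and 0 counts in the control libraries, which leaves room for levels of up to 2.58 and 2.38 CPM (1-nitropyrene) and 2.28 and 2.53 CPM (control), the worth of 3 counts in each library, for counting error only. The genes lie on the minus strand of chromosome 17, at chr17:34969359-34972156 (Hspa1a) and chr17:34956429-34959238 (Hspa1b), 10120 bases apart, and are near-identical copies. How fragments that match several genes were counted is not given in the sources used here, so these values of 0 do not show that the inducible Hsp70 was not translated, and no comparison between the groups could be made for it. The likeness extends into the promoters, which are shown for that reason. RefSeq's windows of 250 bases before to 50 after the start site, at chr17:34972107-34972406 and chr17:34959189-34959488 (GRCm38.p6, minus strand, 5′ to 3′), differ at 4 of 300 bases (98.7% identity), given in capitals. Counted from the 5′ end of the window, with the base of Hspa1a first, these are C44T, T47C, T249G and C276T.
Hspa1a: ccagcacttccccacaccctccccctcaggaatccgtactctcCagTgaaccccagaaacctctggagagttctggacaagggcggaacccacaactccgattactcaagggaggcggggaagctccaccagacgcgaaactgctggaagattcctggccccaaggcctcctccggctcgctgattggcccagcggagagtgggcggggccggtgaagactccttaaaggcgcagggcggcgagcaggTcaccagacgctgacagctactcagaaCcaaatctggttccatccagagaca
Hspa1b: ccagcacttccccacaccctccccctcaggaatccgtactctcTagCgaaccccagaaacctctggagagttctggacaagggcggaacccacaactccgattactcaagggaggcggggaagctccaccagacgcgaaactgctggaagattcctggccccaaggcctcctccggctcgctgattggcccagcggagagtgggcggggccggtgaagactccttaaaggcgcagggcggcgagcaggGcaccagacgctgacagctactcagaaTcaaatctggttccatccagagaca

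The promoter table used here holds 7 of the 10 genes, without Hsp90aa1, Hsp90ab1 and Hspa8, and its windows were searched on both strands for paired heat shock units, GAANNTTC or TTCNNGAA, each of which reads the same on either strand. Such a pair lies in the windows of 6 of the 7 genes, all but Dnajb1, against 17.0% of the 27025 genes in the table. A run of 3 units, GAANNTTCNNGAA or TTCNNGAANNTTC, which holds overlapping pairs, lies in those of 3 of the 7 (Hspd1, Hspe1 and Hsph1), against 0.662% of genes. These counts hold sites more than once: the run of Hspd1 and Hspe1 is the same stretch of chromosome 1 read from either strand, and the windows of Hspa1a and Hspa1b are near-identical. Hspa1a and Hspa1b each have a pair at bases -104 to -97 from the start site. A match is a description of the letters and not a sign that Hsf1 was bound. The members with such letters include both called lower, Hspb1 and Hsph1, whose promoters are printed beside their values. The 3 genes without a window are the 3 called higher. The letters of members called higher and lower could therefore not be compared.

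Dnajb1 (ENSMUSG00000005483, chr8:83608175-83612653), a J-domain protein (Hsp40) that delivers substrates to Hsp70 and is itself heat-inducible, had 65 and 107 counts in the 1-nitropyrene libraries, against 85 and 68 counts in the control libraries. The 1-nitropyrene libraries lie on either side of both controls, at 55.9 and 84.8 CPM against 64.6 and 57.4 CPM in control cells. The log2 fold change of 0.21 ± 0.21 SE did not pass the test (edgeR adjusted p = 0.532), and its 95% interval spans 0.874- to 1.53-fold. Without 1-nitropyrene replicate 3 the log2 fold change was -0.13, and without 1-nitropyrene replicate 2 it was 0.49.

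Hsph1 (ENSMUSG00000029657, chr5:149616843-149636498), an Hsp110 that exchanges the nucleotide of Hsp70 and helps it to dissolve aggregates, had 187 and 231 counts in the 1-nitropyrene libraries, against 280 and 257 counts in the control libraries. Both 1-nitropyrene libraries lie below both controls, but they differ from each other more than the controls do. The level averaged 172 ± 15.6 CPM in 1-nitropyrene cells and 215 ± 2.72 CPM in control cells (SD, n = 2 each). It fell to 0.802 of the control level (95% interval 0.683 to 0.942; log2 fold change -0.32 ± 0.12 SE; edgeR adjusted p = 0.0438). This call lies next to the threshold: it was lost under 9 of 12 alternatives, with an adjusted p of 0.0587 without 1-nitropyrene replicate 3, 0.165 without control replicate 1, 0.217 without control replicate 2 and 0.376 without 1-nitropyrene replicate 2, and the log2 fold change ran from -0.48 to -0.22. Within a library, counts on Hsph1 were 0.144 and 0.166 of those on Hspa8 in 1-nitropyrene cells, against 0.216 and 0.220 in control cells. In 1-nitropyrene cells this ratio was 0.711 of its control value. It restates the changes of a gene called lower and a gene called higher, and is given with no test. The like ratio of Dnajb1 to Hspa8 overlapped, at 0.0501 and 0.0767 in 1-nitropyrene cells against 0.0656 and 0.0581 in control cells. The first of the promoter windows listed for Hsph1 (chr5:149636287-149636586, GRCm38.p6, minus strand, 5′ to 3′, RefSeq) is shown with the heat shock units in capitals. These are a pair at bases -33 to -26 and a run of 3 units at bases 37 to 49 from the start site of this window. As the annotated gene reaches to base 149636498, both stretches lie within its span.
Hsph1: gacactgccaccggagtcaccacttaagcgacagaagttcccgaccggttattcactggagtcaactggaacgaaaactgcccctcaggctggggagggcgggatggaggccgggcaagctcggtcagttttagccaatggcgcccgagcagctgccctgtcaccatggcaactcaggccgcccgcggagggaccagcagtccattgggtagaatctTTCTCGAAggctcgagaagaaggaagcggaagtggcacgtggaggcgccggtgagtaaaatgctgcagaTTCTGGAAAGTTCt

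**Figure D2:**
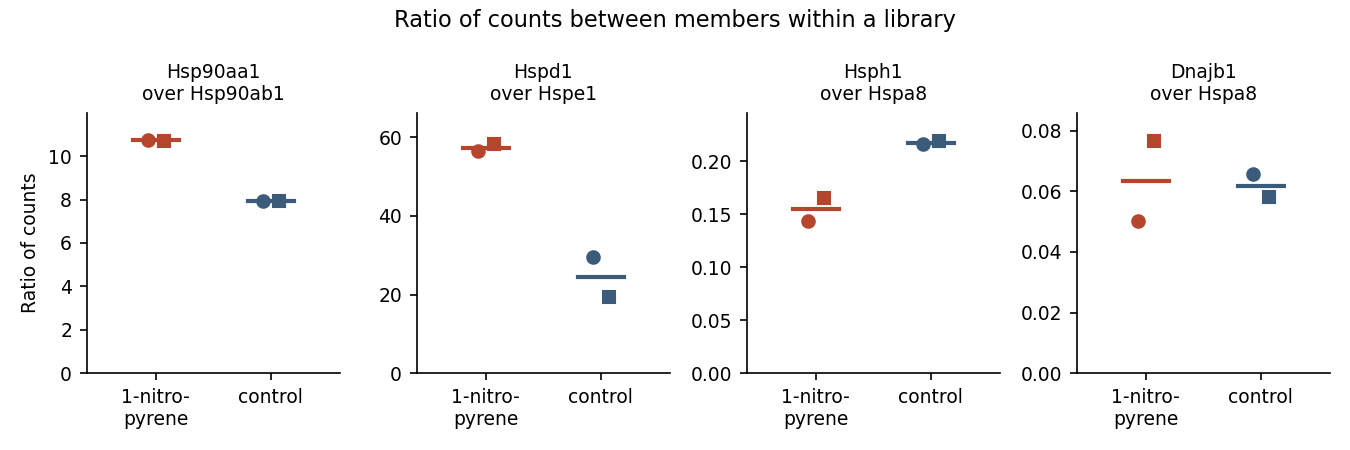
Ratio of the counts on 2 genes within each library (linear axes from 0), with the 1-nitropyrene libraries in red (circle replicate 2, square replicate 3), the control libraries in blue (circle replicate 1, square replicate 2) and bars for the means of n = 2. The ratio of Hsp90aa1 to Hsp90ab1 lies at 10.8 and 10.7 in 1-nitropyrene cells, against 7.93 and 7.92 in control cells, and that of Dnajb1 to Hspa8 overlaps between the groups.

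Hspb1 (ENSMUSG00000004951, chr5:135887919-135889563), a small heat shock protein that holds unfolding proteins without ATP and acts on actin filaments, had 143 and 157 counts in the 1-nitropyrene libraries, against 237 and 222 counts in the control libraries. All counts of the 1-nitropyrene libraries lie well below those of the controls, and the replicates lie close together. The level averaged 124 ± 0.923 CPM in 1-nitropyrene cells and 184 ± 4.97 CPM in control cells (SD, n = 2 each). It fell to 0.674 of the control level (95% interval 0.561 to 0.809; log2 fold change -0.57 ± 0.13 SE; edgeR adjusted p = 0.00044). The call held in 10 of 12 alternatives, each library left out in turn included, and was lost under the DESeq2 Wald test (log2 fold change -0.56, adjusted p = 0.065). Its promoter window (chr5:135887669-135887968, GRCm38.p6, plus strand, 5′ to 3′, RefSeq) holds 2 separate pairs of heat shock units, in capitals, at bases -117 to -110 and -97 to -90.
Hspb1: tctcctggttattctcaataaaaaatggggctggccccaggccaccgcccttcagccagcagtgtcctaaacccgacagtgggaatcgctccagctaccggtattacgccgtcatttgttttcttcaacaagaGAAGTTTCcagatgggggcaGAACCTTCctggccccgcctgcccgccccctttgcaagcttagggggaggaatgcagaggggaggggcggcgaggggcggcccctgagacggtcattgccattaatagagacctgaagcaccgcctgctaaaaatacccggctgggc

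Hspd1 (ENSMUSG00000025980) and Hspe1 (ENSMUSG00000073676) encode the mitochondrial chaperonin, the barrel (Hsp60) in which imported proteins fold and the lid (Hsp10) that closes it. The genes lie head to head on chromosome 1, Hspd1 on the minus strand at chr1:55077833-55088243 and Hspe1 on the plus strand at chr1:55088148-55091317, and their annotated spans share 96 bases. Whether strand was used in counting is not given in the sources used here. The gene table also lists 23 pseudogenes named for Hspd1 and 7 for Hspe1, so that both counts are uncertain where fragments match a copy. The window upstream of Hspe1 (chr1:55087898-55088197, GRCm38.p6, plus strand, 5′ to 3′, RefSeq) is shown since 285 of its 300 bases are also in the second of the windows listed for Hspd1, read from the other strand. The first Hspd1 window (chr1:55088194-55088493), at the annotated 5′ end of the gene, holds 0 pairs of heat shock units. The capitals mark a run of heat shock units at bases -89 to -72 from the Hspe1 start site, which is also at bases -144 to -127 from the second listed start site of Hspd1. From the first Hspd1 start site this run lies downstream, within the annotated gene.
Hspe1: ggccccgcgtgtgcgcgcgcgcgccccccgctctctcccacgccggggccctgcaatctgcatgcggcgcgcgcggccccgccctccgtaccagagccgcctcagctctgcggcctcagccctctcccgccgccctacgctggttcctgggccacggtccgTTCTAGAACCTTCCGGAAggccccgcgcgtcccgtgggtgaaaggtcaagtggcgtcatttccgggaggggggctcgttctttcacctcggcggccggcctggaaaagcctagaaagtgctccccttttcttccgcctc

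Hspd1 had 508 and 582 counts in the 1-nitropyrene libraries, against 560 and 446 counts in the control libraries. After scaling these were 437 and 461 CPM in 1-nitropyrene cells, against 426 and 376 CPM in control cells, so that the groups did not overlap but the gap between them was smaller than the spread within the controls. The log2 fold change of 0.16 ± 0.079 SE did not pass the test (edgeR adjusted p = 0.146; 95% interval 1.00- to 1.24-fold), and with total counts it was -0.0037. Hspe1 had only 9 and 10 counts in the 1-nitropyrene libraries, against 19 and 23 counts in the control libraries. Its level averaged 7.83 ± 0.125 CPM in 1-nitropyrene cells and 16.9 ± 3.50 CPM in control cells (SD, n = 2 each). The log2 fold change of -1.09 ± 0.48 SE did not pass the test (edgeR adjusted p = 0.097; 95% interval 0.245- to 0.896-fold) and had the largest error of the 8 genes. With total counts it passed, at a log2 fold change of -1.26 (adjusted p = 0.0435). Counts on Hspd1 were 56.4 and 58.2 times those on Hspe1 in 1-nitropyrene cells, against 29.5 and 19.4 times in control cells. This ratio rests on the few counts of Hspe1 and is given with no test.

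**Figure D3:**
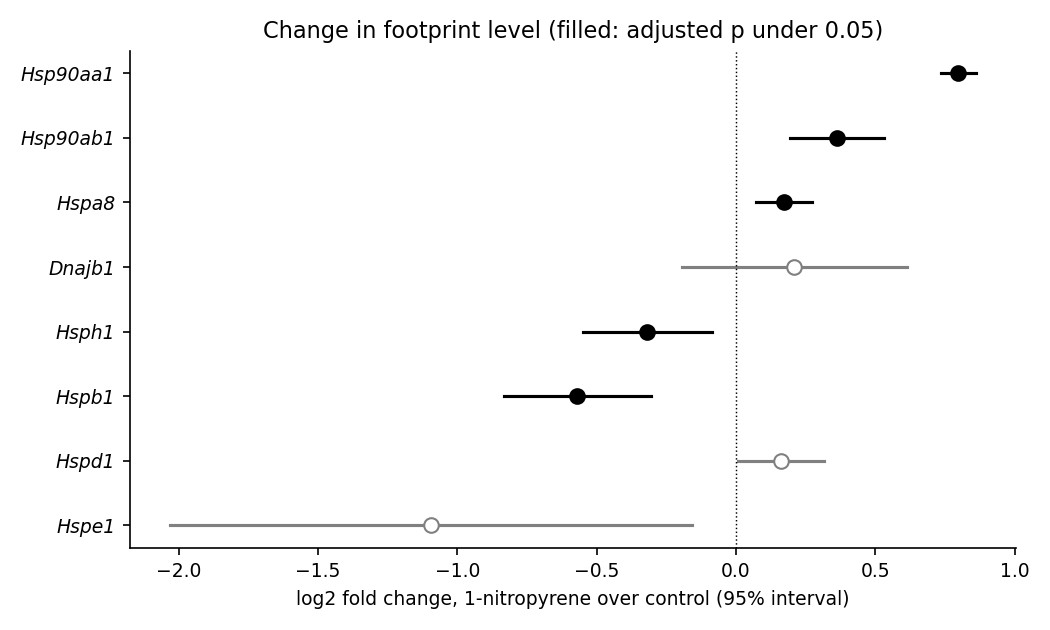
Log2 fold change in footprint level, 1-nitropyrene over control, for the 8 genes with counts, with 95% intervals from the edgeR fit over 2 libraries a group (filled black: adjusted p under 0.05). Hsp90aa1 stands at 0.80, Hspb1 at -0.57 and Hspe1, with the widest interval, at -1.09; with total counts in place of TMM the value of Hspd1 turns to -0.0037.

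As a sum, the 10 genes had 7737 and 8480 counts in the 1-nitropyrene libraries, against 6220 and 5485 counts in the control libraries. They held 0.624% ± 0.0018 of all counts in 1-nitropyrene cells and 0.488% ± 0.0073 in control cells (SD, n = 2 each). The share was 1.28-fold higher in 1-nitropyrene cells, with no overlap, but an exact two-sided permutation test of 2 libraries against 2 cannot go below p = 0.333, the value it gave. Hsp90aa1 held 65.4% and 64.7% of these counts after scaling in 1-nitropyrene cells, against 53.4% and 53.4% in control cells. Without Hsp90aa1 the other genes held 0.218% ± 0.0036 of all counts in 1-nitropyrene cells and 0.227% ± 0.0033 in control cells, a ratio of 0.960, which turned to 1.07 after TMM scaling. The direction of the sum over the other genes therefore depended on the scaling, and that of the whole sum did not.

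**Figure D4:**
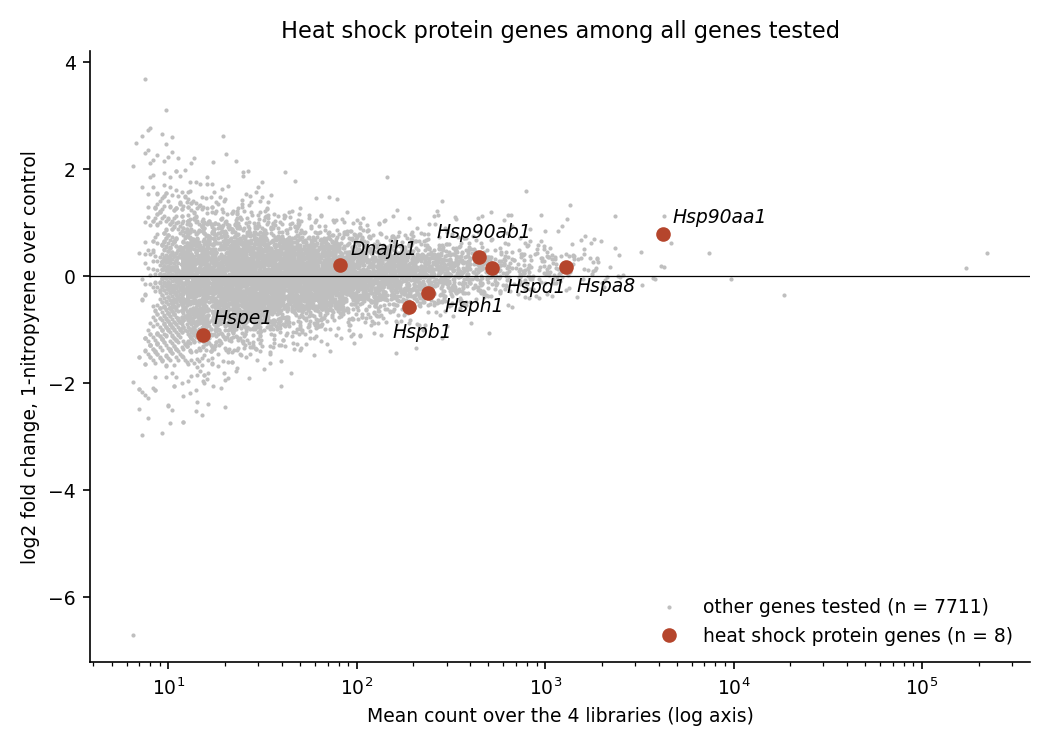
Log2 fold change, 1-nitropyrene over control, against the mean count over the 4 libraries (log axis) for the 7719 genes tested (grey) with the 8 heat shock protein genes in red. Hsp90aa1 lies above most genes of like count, Hspb1 and Hsph1 lie below 0, and Hspe1 lies among the genes with few counts, where fold changes scatter widely.

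The scaling moves all genes nearly alike. With total counts in place of TMM, the median log2 fold change of all genes tested was -0.17 in place of -0.0076. Relative to the median of its own scaling, Hsp90aa1 was at 0.81 with either scaling, Hsp90ab1 at 0.37, Hspa8 at 0.18, Hsph1 at -0.31 and Hspb1 at -0.56. Against 0, total counts left 1 member called higher (Hsp90aa1) and 3 called lower (Hspb1, Hsph1 and Hspe1), where 5.26% and 14.4% of all genes tested were called. Since a scaling shifts all genes nearly alike, differences between members, such as Hsp90aa1 against Hspb1 and Hsph1, could not depend on this choice. Their constancy is thus no test of them. The sign of Hspd1 against 0 did depend on it, at 0.16 with TMM and -0.0037 with total counts. Relative to the median, Hspd1 was at 0.17 with either scaling.

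**Figure D5:**
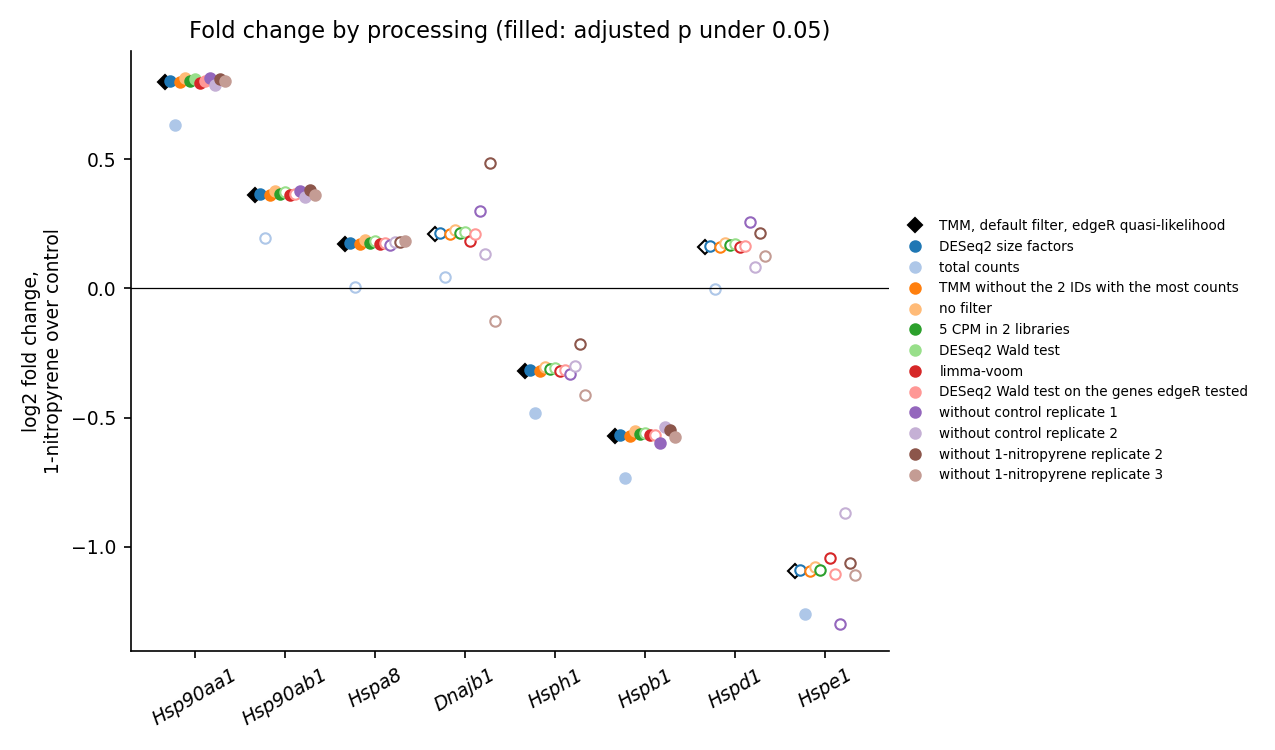
Log2 fold change, 1-nitropyrene over control, of the 8 genes under the reported processing (black diamonds) and each alternative (coloured circles; filled where the adjusted p was under 0.05). Hsp90aa1 is filled throughout, between 0.63 and 0.81; Dnajb1 crosses 0 without 1-nitropyrene replicate 3, and Hspd1 with total counts.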

How the data were processed

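The authors deposited 1 table of raw footprint counts per Ensembl gene ID, not normalized, with 1 column per library and 0 other sample columns. The submitters' processing notes list the build mm10 and the tools HISAT2, Bowtie, cutadapt, DESeq2 and featureCounts. Not given in the sources used here are versions, roles, annotation, fragment length and the treatment of strand and of reads matching several genes.

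All 10 members are named, with counts in every library. Members and lists were chosen with earlier results of these data known. The chaperone lists and cell type markers written down as symbols were not run, as no table pairs symbols with the IDs.

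Genes were kept with filterByExpr (minimum count 10, minimum total 15), which left 7719 IDs with 98.6% of the counts, scaled with TMM and tested by quasi-likelihood in edgeR 4.0.16 (R 4.3.3) over 4 libraries with no covariates. CPM are counts per 1e6 of the scaled library. With infinite prior degrees of freedom, a gene's spread was that of the abundance trend. Standard errors and 95% intervals, which are not adjusted for the number of genes, were worked back from each F statistic. Alternatives were other scalings and filters, limma-voom (limma 3.58.1), the DESeq2 Wald test (DESeq2 1.42.0) and leaving out each library. The replicates of a group differed beyond counting noise (chi-square per degree of freedom 1.61 in 1-nitropyrene and 1.55 in control, over genes with 20 or more counts in the pair), so none was treated as a library deposited a second time; repeat preparations of a single culture could differ as much. Sequences and positions are RefSeq's, of GRCm38.p6, the assembly of mm10.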

Additional observations from a re-analysis of the deposited data

How the results depend on the processing

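Of 95 combinations of a gene and an alternative, 72 kept direction and call, 20 lost the call, 1 gained it (Hspe1 with total counts) and 2 turned direction, in genes that did not pass the test: Hspd1 with total counts (log2 fold change -0.0037) and Dnajb1, which ran from -0.13 to 0.49 with a library left out. Hsp90aa1 kept its call in all 12, at 0.63 to 0.81. The DESeq2 Wald test called 315 genes in place of 1332, and 345 when run on edgeR's genes with no filter of its own, an alternative chosen after seeing the data. Under either, 1 member was called higher and 0 lower. Why the DESeq2 Wald test called fewer genes was not tested. Total counts called 1 member higher. No filter, the filter of 5 CPM in 2 libraries and limma-voom each called 1 member lower. Over all genes tested they called 463 of 13738, 564 of 8834 and 535 of 7719 lower, in that order. Each fit without 1 library takes the spread of its single sample from the pair in the other group; these called 572 to 834 genes, 2 to 3 members higher and 1 lower. The fold of the summed share, 1.28, was 1.43 with TMM, DESeq2's size factors and TMM computed without the 2 most counted IDs, 1.26 to 1.29 without 1 library, and 0.960 without Hsp90aa1, chosen after seeing the data. Over the whole table, total counts called 406 genes higher and 1110 lower, in place of 747 and 585. Summing Hspa1a and Hspa1b gave no value, as both have 0 counts. No paired analysis was possible because replicate 2 is the only number that both groups hold. Hspa1a and Hspa1b, with 0 counts, and Hspe1, with 9 to 23, had the fewest counts of the 10 genes.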
